A study of Mus musculus with 8 samples.

Results

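The genes described here encode the SLC25 carriers, the largest family of transporters of the mitochondrial inner membrane, in mouse bone marrow-derived macrophages (BMDM, macrophages grown in culture from marrow precursors) of strain C57BL/6. Members were all rows of the deposited gene table whose symbol is Slc25a followed by a number. There were 46 such genes of 17492 in all. RNA was sequenced from 4 libraries of cells kept in medium without serine and glycine (NSG, labelled as serine deficiency) and from 4 control libraries of cells in normal medium (SG). The labels give no genotype other than the strain. They do not give the animals' age, the time in culture or any stimulus. Nor do they say that the libraries of a group are separate cultures or animals, so a p-value here is set against library-to-library spread that could be technical.

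SLC25 proteins move metabolites, nucleotides, cofactors and ions between the cytosol and the mitochondrial matrix, mostly as exchangers. Several serve pathways that use serine and glycine. Cells import serine into mitochondria through sideroflexins, which are not SLC25 proteins, and cleave it there to glycine and a one-carbon unit carried on folate. Slc25a38 supplies the matrix with glycine for heme synthesis, Slc25a32 carries folate, Slc25a26 carries S-adenosylmethionine, and Slc25a39 and Slc25a40 import glutathione, which itself contains glycine.

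Without serine and glycine, 7 carrier transcripts were lower and 4 were higher, and every one of these changes was smaller than 1.5-fold. The glycine carrier Slc25a38, the dicarboxylate carrier Slc25a10, the glutamate carrier Slc25a22, the pyrimidine nucleotide carrier Slc25a36, Slc25a45, which has no substrate assigned here, the ADP/ATP carrier Slc25a5 and the phosphate carrier Slc25a3 fell. The S-adenosylmethionine carrier Slc25a26, the ATP-Mg/phosphate carrier Slc25a23, the aspartate/glutamate carrier Slc25a13 and the acylcarnitine carrier Slc25a20 rose. Carriers of folate, glutathione and iron did not pass the test.

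Of the 46 members, 39 passed the filter on low counts and were tested, and 11 of these passed an adjusted p of 0.05 (edgeR's quasi-likelihood test with Benjamini-Hochberg adjustment over all genes tested, used for every adjusted p below unless another tool is named). That is 28.2% of the tested members, against 33.2% of all 11700 genes tested. The 4 rises are 10.3% of the tested members against 15.9% of all genes, and the 7 falls are 17.9% against 17.3%. The share of called carriers was thus near that of genes in general. The substrate groups below held 1 to 9 tested members, and whether they differ in that share was not tested. Changes of at least 0.2 on the log2 scale that passed the test numbered 4 among the members, 10.3%, against 17% of all genes. The median log2 change (serine/glycine-free over control) was -0.031 over the tested members and 0.0074 over all genes. Among called genes the median size of the log2 change was 0.18 for members and 0.20 for all genes. The 2 groups of libraries did not overlap for 8 members, 20.5%, against 30.6% of all genes.

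**Figure D1:**
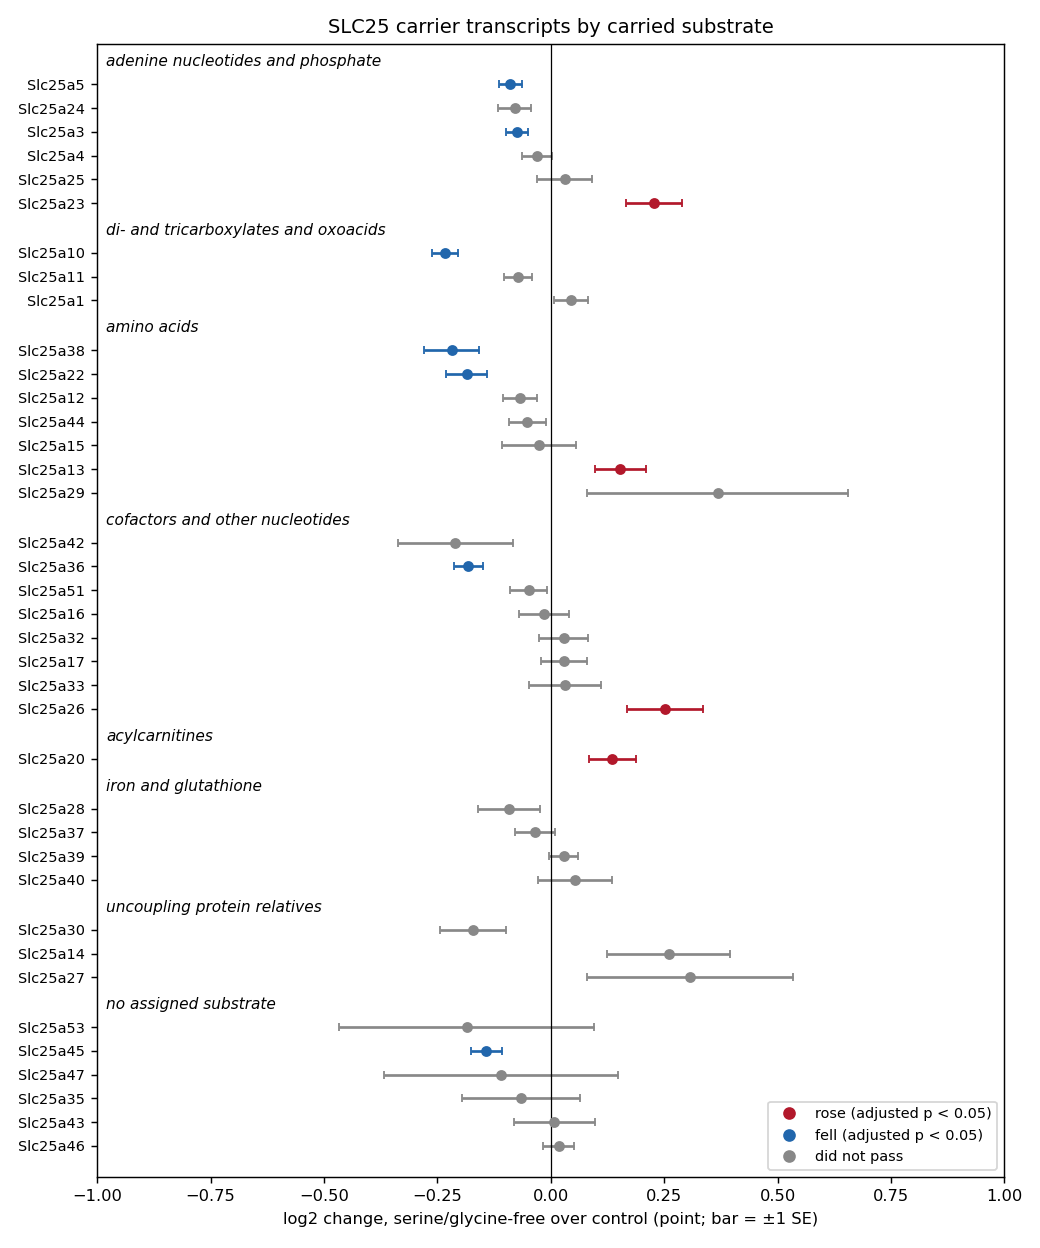
Log2 change of 38 of the 39 tested SLC25 transcripts (points, x axis; bars are 1 standard error to each side), listed by carried substrate on the y axis and coloured by the call at an adjusted p of 0.05. The 7 falls and 4 rises lie between -0.23 and 0.25.

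On GRCm38.p6 all 11 called members are annotated as protein-coding genes. Those lower without serine and glycine lie as follows: Slc25a10 (Entrez 27376) at chr11:120491837-120501161, + strand, Slc25a38 (Entrez 208638) at chr9:120110377-120126093, + strand, Slc25a22 (Entrez 68267) at chr7:141429749-141437874, - strand, and Slc25a36 (Entrez 192287) at chr9:97075281-97111041, - strand. The others are Slc25a45 (Entrez 107375) at chr19:5877801-5885768, + strand, Slc25a5 (Entrez 11740) at chrX:36795597-36798808, + strand, and Slc25a3 (Entrez 18674) at chr10:91116574-91124046, - strand. Those higher are Slc25a26 (Entrez 67582) at chr6:94500295-94604659, + strand, Slc25a23 (Entrez 66972) at chr17:57043711-57059909, - strand, Slc25a13 (Entrez 50799) at chr6:6041218-6217304, - strand, and Slc25a20 (Entrez 57279) at chr9:108662136-108684642, + strand.

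The promoter stretches of 5 called members are shown so that what lies before their start sites can be set side by side. All of these but Slc25a20 fell, and each printed stretch holds a searched motif. Sequences are from RefSeq on GRCm38.p6, where 35 of the 46 members had an entry, 30 of them tested. Each stretch begins 250 bases before the annotated start and stops before the first base that the GENCODE annotation places in an exon or RefSeq places in the gene. Capitals mark motifs, each searched on both strands. The E-box, the site of factors such as Myc and Usf, was searched as CACGTG. The cAMP response element was searched as TGACGTCA, the ATF4 composite element as TGATGNAA and the antioxidant response element as TGACNNNGC. The motif of ETS factors was searched as CCGGAAG, and the CCAAT box by the letters of its name. No matches overlap in the printed stretches.
Slc25a38 (fell), chr9:120110132-120110373, + strand: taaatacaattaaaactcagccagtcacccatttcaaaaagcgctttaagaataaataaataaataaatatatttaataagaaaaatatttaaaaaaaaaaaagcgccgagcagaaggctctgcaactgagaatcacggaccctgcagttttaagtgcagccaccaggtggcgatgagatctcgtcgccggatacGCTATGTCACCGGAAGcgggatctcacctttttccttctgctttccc
Slc25a36 (fell), chr9:97111158-97111291, - strand: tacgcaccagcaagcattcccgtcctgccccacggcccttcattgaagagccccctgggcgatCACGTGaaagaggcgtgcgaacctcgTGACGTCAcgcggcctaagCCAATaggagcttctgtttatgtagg
Slc25a5 (fell), chrX:36795347-36795596, + strand: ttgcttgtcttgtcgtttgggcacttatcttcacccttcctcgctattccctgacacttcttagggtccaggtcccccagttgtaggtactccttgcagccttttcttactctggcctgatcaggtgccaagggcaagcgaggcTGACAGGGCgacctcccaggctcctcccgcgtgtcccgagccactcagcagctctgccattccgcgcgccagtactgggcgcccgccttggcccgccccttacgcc
Slc25a3 (fell), chr10:91124060-91124217, - strand: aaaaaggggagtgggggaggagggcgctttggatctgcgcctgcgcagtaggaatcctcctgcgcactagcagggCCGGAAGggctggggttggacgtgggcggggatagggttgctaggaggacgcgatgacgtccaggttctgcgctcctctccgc
Slc25a20 (rose), chr9:108661886-108662087, + strand: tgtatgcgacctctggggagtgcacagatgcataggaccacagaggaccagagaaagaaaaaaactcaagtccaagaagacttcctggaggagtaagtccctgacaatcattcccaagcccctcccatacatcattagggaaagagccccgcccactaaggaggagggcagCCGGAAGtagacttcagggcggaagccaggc

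In Slc25a38 the capitals are an antioxidant response element read on the opposite strand, from 55 to 47 bases before the start, that abuts an ETS motif. Slc25a36 held an E-box, a cAMP response element and a CCAAT box in a row. Motifs occurred before members of both directions: the E-box stood before Slc25a36, which fell, and Slc25a13, which rose, although in Slc25a13 the match lies inside the range that RefSeq gives for the gene, and its stretch is not printed. The ETS motif stood before Slc25a3 and Slc25a38, which fell, and Slc25a20, which rose. Counted over the full 250 bases, the antioxidant response element stood before Slc25a3, Slc25a38 and Slc25a5, which fell. It also stood before Slc25a23, which rose and whose stretch is not printed. The CCAAT box, counted likewise, stood before Slc25a22 and Slc25a36, which fell, and before Slc25a13 and Slc25a23, which rose. All 7 members that fell had a promoter entry. Among them, Slc25a10 and Slc25a45 held none of the searched motifs, and their stretches are not printed. Over the full 250 bases, 6 of the 30 tested members with a promoter held the E-box, against 6.86% of the 27025 genes in the promoter table. The cAMP response element was in 2 of 30 (1.77%). The ETS motif was in 5 of 30 (7.83% of all), the antioxidant response element in 7 of 30 (11.5%, with that of Slc25a3 outside the printed stretch), the CCAAT box in 16 of 30 (37.5%) and the ATF4 composite element in 0 of 30 (3.91%). The promoter table was not limited to genes that passed the filter on low counts, as the tested members were, so these shares come from unlike sets. Whether carriers differ in motifs from other tested genes was not tested. A match describes letters in this window and no more.

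The libraries held 17565291 to 18201599 estimated counts. Levels are given as CPM, the estimated count over the TMM-scaled library total. A count of 0 allows up to 3 counts, or 0.164 to 0.171 CPM, with counting error only. All 12 pairs of libraries within a group differed by more than counting noise (chi-square per degree of freedom 1.41 to 3.46), and none was taken for a copy of another. All 8 macrophage markers tested were present, with a summed level of 17347 to 17770 CPM in control and 17961 to 18175 CPM in serine/glycine-free libraries. The 6 neutrophil markers summed to 0.772 to 1.12 CPM in control and 1.89 to 2.29 CPM without serine and glycine. Of these only S100a8 passed the filter (0.755 to 1.87 CPM on average, log2 change 1.30, adjusted p = 8.97e-06). S100a9 averaged 0.167 CPM in control and 0.182 CPM without serine and glycine. Ly6g, Elane and Camp were at 0 in all control libraries and averaged at most 0.0421 CPM without serine and glycine. Mpo was at 0 in all serine/glycine-free libraries and averaged 0.028 CPM in control. In these lists of marker genes, 5 macrophage markers rose and 3 fell. Dendritic cell markers summed to 1.21 to 1.96 CPM in control and 1.34 to 1.66 CPM without serine and glycine, and fibroblast, lymphocyte and erythroid markers to at most 1.66 CPM in any library. Osteoclast markers summed to 171 to 179.9 CPM in control and 165 to 171 CPM without serine and glycine. Nearly all of this was Acp5, with 176 CPM on average in control and 165 CPM without serine and glycine. Ocstamp, Dcstamp and Calcr averaged at most 0.809 CPM in either group. Whether any such other cells were present or had a part in any carrier's change was not tested. In bulk RNA, fewer cells of a type and less RNA per cell cannot be told apart.

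The adenine nucleotide and phosphate carriers supply ATP synthase with ADP and phosphate and export the ATP, and 2 of them were the most abundant members. On the FPKM scale, which corrects for length, Slc25a5 led with 408 ± 12.4 in control (SD, n = 4), followed by Slc25a3 with 293 ± 5.99. The glutathione carrier Slc25a39 came next with 147 ± 5.63 FPKM, then the ADP/ATP carrier Slc25a4 with 128 ± 4.76, the oxoglutarate carrier Slc25a11 with 88.7 ± 3.76 and Slc25a10 with 74.4 ± 1.64. The order of these 6 was the same without serine and glycine. Slc25a5 and Slc25a3 together made up 44.7% to 45.4% of the summed FPKM of the 46 members in control and 43.5% to 44.8% in serine/glycine-free libraries. That sum leaves out family members with other names, such as Ucp2 with 816 FPKM in control.

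Slc25a5, the main ADP/ATP carrier here, stood at 475, 485, 452 and 463 CPM in control libraries 1 to 4. Without serine and glycine it stood at 439, 438, 450.0 and 435 CPM. All serine/glycine-free libraries were below all control libraries, and the mean level was 0.94 of control (log2 change -0.089, SE 0.025, adjusted p = 0.00483). Slc25a3, the phosphate carrier that also brings copper into the matrix, stood at 402, 405, 388 and 397 CPM in control and 378, 375, 381 and 378 CPM without serine and glycine. It also showed no overlap and a smaller change (log2 change -0.075, SE 0.025, adjusted p = 0.0156). The call of Slc25a3 was lost without control replicate 2 (adjusted p = 0.0644). Slc25a4, the ADP/ATP carrier of muscle and heart, had 125, 127, 123 and 116 CPM in control and 116, 121, 117 and 127 CPM without serine and glycine. These groups overlapped (log2 change -0.031, 95% interval -0.098 to 0.036, adjusted p = 0.511). When each library was first cleared of any trend of log counts with gene length, Slc25a4 passed (-0.094, adjusted p = 0.00911).

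The ATP-Mg/phosphate carriers adjust the matrix adenine nucleotide pool in response to calcium. Slc25a23 rose, from 18.95, 18.4, 20.5 and 17.8 CPM to 24.2, 22.9, 21.5 and 19.8 CPM (log2 change 0.23, SE 0.063, adjusted p = 0.0038). The lowest serine/glycine-free library lay below the highest control library. An antisense gene, Gm17168, shares 168 exonic bases with Slc25a23. Slc25a24, its more abundant relative, went the other way without passing (log2 change -0.080, adjusted p = 0.0838), and its groups did not overlap. Slc25a25 stood at 0.031 (adjusted p = 0.743), with counts that were not whole in all 8 libraries, which RSEM gives where reads map to more than a single place. Of the 6 tested members of the adenine nucleotide and phosphate group, 1 rose, 2 fell and 3 did not pass. That is 50% called, against 33.2% of all genes tested.

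**Figure D2:**
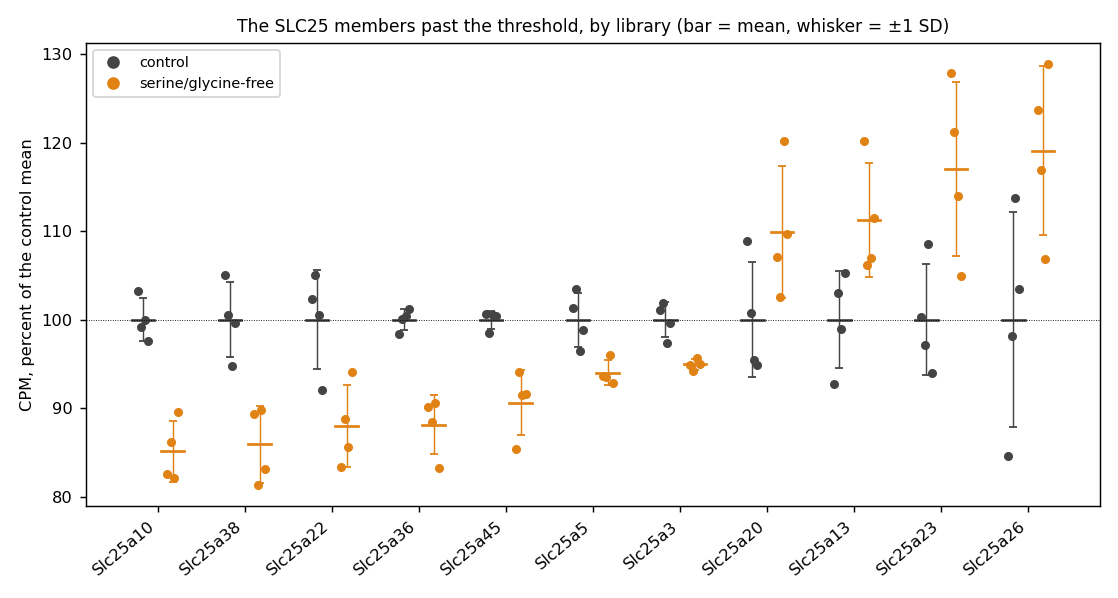
CPM of the 11 SLC25 members past the threshold, as percent of each gene's control mean (y axis), in the 4 control and 4 serine/glycine-free libraries (points; bars are means and whiskers 1 SD to each side). The falling genes Slc25a10, Slc25a38, Slc25a36, Slc25a45, Slc25a5 and Slc25a3 and the rising gene Slc25a13 show no overlap between the groups.

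The dicarboxylate and oxoacid carriers link the citric acid cycle with the cytosol. Slc25a10, which exchanges malate and succinate for phosphate, stood at 297, 285, 287 and 280.5 CPM in control and 237, 248, 236 and 257 CPM without serine and glycine. Every serine/glycine-free library lay below every control library, and the mean was 287 ± 6.91 CPM in control and 245 ± 10.03 CPM without serine and glycine (SD, n = 4), or 0.851 of control. This is the fall with the smallest p (log2 change -0.23, SE 0.028, adjusted p = 6.17e-09). An antisense gene, Gm11788, shares 228 exonic bases with Slc25a10 in the annotation, and the sources used here do not say whether counting used strand. Other members also share exonic bases with genes on the opposite strand, among them Slc25a11 with Rnf167 (189 bases) and Slc25a25 with Naif1 (379). Slc25a46 does so with B930094E09Rik (383), Slc25a35 with Rangrf (1151) and Slc25a37 with Gm27223 (92) and Gm31748 (381). The part of such overlaps in the counts was not tested. Slc25a11, which exchanges oxoglutarate for malate, stood at -0.073 (adjusted p = 0.0633). It passed with the length trend removed (-0.10, adjusted p = 0.00221), when control replicate 3 was left out (-0.10, adjusted p = 0.0125) and with no filter on low counts (-0.081, adjusted p = 0.0421).

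Slc25a1 exports citrate, the source of cytosolic acetyl-CoA for lipid synthesis. It stood at 75.2, 75.7, 69.9 and 69.99 CPM in control and 72.5, 74.7, 74.0 and 78.6 CPM without serine and glycine. The groups overlapped (log2 change 0.044, 95% interval -0.032 to 0.12, adjusted p = 0.406). Of the 3 tested members of this group, 0 rose and 1 fell (edgeR), or 33.3% called against 33.2% of all genes tested. At an unadjusted p under 0.05, 0 rose and 2 fell, and DESeq2 and limma-voom each called 0 rises and 1 fall. The summed level of the group was 496 to 521 CPM in control and 447 to 476 CPM without serine and glycine. Slc25a10 made up most of that difference, at 287 CPM on average in control and 245 CPM without serine and glycine. Slc25a11 averaged 147 and 140 CPM, and Slc25a1 went the other way with 72.7 and 74.9 CPM.

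Among amino acid carriers, Slc25a38, which brings glycine into mitochondria for the first step of heme synthesis, fell. It stood at 20.6, 19.7, 18.6 and 19.5 CPM in control and 17.5, 15.9, 17.6 and 16.3 CPM without serine and glycine. No library of one group reached the other, and the level was 0.859 of control (log2 change -0.22, SE 0.061, adjusted p = 0.00435). Slc25a22, a glutamate carrier, fell from 50.5, 51.8, 49.6 and 45.5 CPM to 41.2, 43.8, 42.3 and 46.5 CPM (log2 change -0.19, SE 0.046, adjusted p = 0.00124). Control replicate 4 was lower than serine/glycine-free replicate 4, so these groups overlapped.

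Slc25a12 and Slc25a13 exchange aspartate for glutamate and belong to the malate-aspartate shuttle, which brings reducing equivalents into mitochondria. Slc25a13 rose from 22.3, 24.8, 23.8 and 25.3 CPM to 28.9, 25.5, 25.7 and 26.8 CPM (log2 change 0.15, SE 0.055, adjusted p = 0.0287). The groups were separate, but the nearest libraries differed little. Its call was lost without control replicate 1 (adjusted p = 0.127), without control replicate 3 (0.064), without serine/glycine-free replicate 1 (0.141) and with DESeq2 (0.0945). The more abundant Slc25a12 stood at 82.0, 75.3, 74.2 and 77.9 CPM in control and 75.2, 72.6, 72.3 and 74.9 CPM without serine and glycine with overlap (log2 change -0.068, 95% interval -0.14 to 0.0060, adjusted p = 0.155). Slc25a44, which carries branched-chain amino acids, stood at -0.052 (adjusted p = 0.365) and the ornithine carrier Slc25a15 at -0.025 (adjusted p = 0.849). The basic amino acid carrier Slc25a29 had under 1 CPM in each library and a log2 change of 0.37 with a wide interval (-0.21 to 0.95, adjusted p = 0.351). Of 7 tested amino acid carriers, 1 rose, 2 fell and 4 did not pass. That is 42.9% called, against 33.2% of all genes tested.

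Carriers of cofactors and of nucleotides other than adenine nucleotides gave 1 rise and 1 fall among 9 tested. That is 22.2% called, against 33.2% of all genes tested. Slc25a36, which carries pyrimidine nucleotides for the synthesis of mitochondrial DNA and RNA, fell from 112, 114, 115 and 116 CPM to 103, 101, 103 and 95.1 CPM (log2 change -0.18, SE 0.032, adjusted p = 1.52e-05). All serine/glycine-free libraries lay below all controls. Its relative Slc25a33 stood at 0.031 (adjusted p = 0.807).

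Slc25a26 imports S-adenosylmethionine, the methyl donor, into the matrix. It stood at 8.55, 9.93, 11.5 and 10.5 CPM in control and 12.5, 11.8, 10.8 and 13.03 CPM without serine and glycine. The mean went from 10.1 ± 1.23 to 12.04 ± 0.962 CPM in 4 libraries each (SD). The log2 change was 0.25 (SE 0.084, adjusted p = 0.0169), with control replicate 3 inside the range of the other group. The call was lost at an adjusted p of 0.01, when control replicate 1 was left out (0.18, adjusted p = 0.112), when serine/glycine-free replicate 4 was (0.21, adjusted p = 0.0576), by DESeq2 (0.25, adjusted p = 0.0621) and on the authors' FPKM with limma (0.15, adjusted p = 0.107). Slc25a26 shares 144 exonic bases with Lrig1 on the opposite strand, and Lrig1 also rose (log2 change 0.48, adjusted p = 0.00297). Its part in the counts of Slc25a26 was not tested.

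The folate carrier Slc25a32, which serves mitochondrial one-carbon metabolism, stood at 22.6, 21.8, 22.4 and 22.8 CPM in control and 23.0, 22.3, 23.2 and 22.9 CPM without serine and glycine. Its groups overlapped (log2 change 0.028, 95% interval -0.080 to 0.14, adjusted p = 0.732). The lower end of that interval is a smaller fall than the one estimated for Slc25a38. The NAD carrier Slc25a51 (-0.049), the peroxisomal carrier Slc25a17 (0.029) and Slc25a16 (-0.015) had adjusted p of 0.397, 0.713 and 0.872. The coenzyme A carrier Slc25a42 stood at -0.21 (adjusted p = 0.206) at a mean of 4.25 CPM in control.

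Slc25a20 exchanges acylcarnitines for carnitine and so admits long-chain fatty acids to beta-oxidation. It stood at 35.1, 32.5, 30.8 and 30.6 CPM in control and 34.5, 33.1, 38.8 and 35.4 CPM without serine and glycine, with overlap. The rise was small (log2 change 0.14, SE 0.052, adjusted p = 0.0409). The call was lost without control replicate 2 (adjusted p = 0.0677), 3 (0.134) or 4 (0.136), without serine/glycine-free replicate 3 (0.233), with DESeq2 (0.112), with the length trend removed (0.0925) and on the authors' FPKM (0.0611).

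None of the 4 tested carriers of iron and glutathione passed: edgeR, DESeq2 and limma-voom each called 0, and 0 had an unadjusted p under 0.05. Among all genes tested, edgeR called 33.2%. Slc25a39, the main glutathione importer by level, stood at 229.6, 227, 212 and 219 CPM in control and 219, 217, 229 and 242 CPM without serine and glycine. These overlapped (log2 change 0.029, 95% interval -0.036 to 0.093, adjusted p = 0.528). The related Slc25a40 stood at 10.9, 9.76, 11.2 and 10.97 CPM in control and at 12.1, 12.04, 9.97 and 10.3 CPM without serine and glycine (log2 change 0.053, 95% interval -0.11 to 0.22, adjusted p = 0.662). Slc25a37, the iron importer mitoferrin of red cell precursors, stood at 46.5, 48.3, 51.8 and 45.6 CPM in control and 48.2, 44.6, 48.0 and 46.8 CPM without serine and glycine (-0.035, 95% interval -0.12 to 0.054, adjusted p = 0.592). Counts of Slc25a37 were not whole in 7 of 8 libraries. Slc25a28, the mitoferrin of other tissues, stood at 17.8, 16.2, 14.6 and 16.7 CPM in control and at 14.6, 14.4, 16.2 and 16.2 CPM without serine and glycine (log2 change -0.092, 95% interval -0.23 to 0.046, adjusted p = 0.323). The groups overlapped for each of these carriers.

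With edgeR the relatives of uncoupling proteins gave 0 calls among 3 tested, against 33.2% of all genes tested. DESeq2 and limma-voom also gave 0, and at an unadjusted p under 0.05 there was 1. That was Slc25a30 (log2 change -0.17, adjusted p = 0.0654), which passed with the length trend removed (-0.21, adjusted p = 0.0206), when control replicate 4 was left out (-0.21, adjusted p = 0.0331) and when serine/glycine-free replicate 3 was (-0.23, adjusted p = 0.0256). Slc25a14 stood at 0.26 (adjusted p = 0.14) and passed with replicate 2 of the serine/glycine-free group left out (0.39, adjusted p = 0.020). Slc25a27 stood at 0.31 (adjusted p = 0.318) at 1.103 CPM in control.

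Of 6 tested members with no substrate assigned here, 1 fell, or 16.7%, and 17.3% of all genes tested fell. Slc25a45 went from 97.0, 94.9, 96.9 and 96.8 CPM to 82.3, 90.7, 88.2 and 88.3 CPM, with no overlap (log2 change -0.14, SE 0.034, adjusted p = 0.000956). Slc25a46, an outer membrane protein that acts in mitochondrial dynamics, stood at 0.017 (95% interval -0.052 to 0.086, adjusted p = 0.742). Slc25a43 (0.0079), Slc25a35 (-0.066), Slc25a47 (-0.11) and Slc25a53 (-0.19) had adjusted p between 0.66 and 0.962.

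The 7 untested members had between 0 and 9 counts per library. They were Slc25a2, Slc25a18, Slc25a21, Slc25a31, Slc25a34, Slc25a41 and Slc25a48. Slc25a18, a glutamate carrier, was the only one of the 7 with at least 1 count in every library. Precision went with level among the tested members. The 32 with at least 5 CPM in control had SE of 0.025 to 0.090, and the 7 below that had SE of 0.13 to 0.29. All 11 calls were among the 32.

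**Figure D3:**
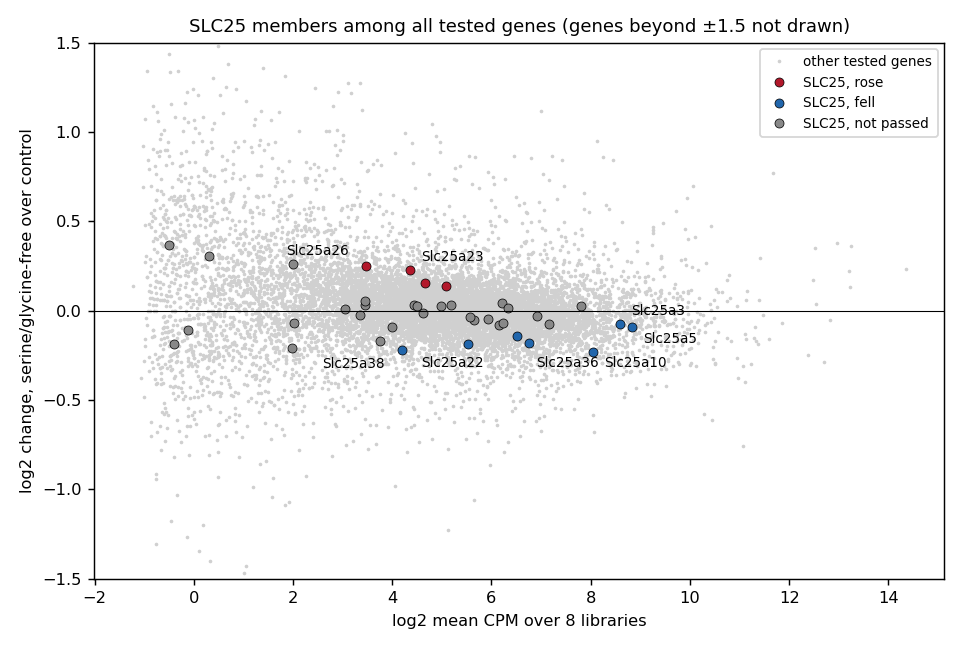
Log2 change (y axis) against log2 mean CPM over 8 libraries (x axis) for the tested genes (grey) and the 39 tested SLC25 members (coloured by call). The members lie within the cloud of other genes, and the scatter of the lowly expressed members is wider.

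Where related carriers take the same substrate, their balance within a library depends little on library scaling. Pairs were compared as the log2 ratio of their CPM, with 0.5 CPM added to each, by an exact two-sided permutation test over libraries. With 4 against 4, the smallest p it allows is 0.0286, and values were adjusted over the 7 pairs. The ratio of Slc25a12 to Slc25a13 was 1.85, 1.59, 1.62 and 1.60 in control and 1.37, 1.49, 1.47 and 1.46 without serine and glycine, all lower. The difference was -0.22 (exact permutation p = 0.0286, adjusted p = 0.10). The ratio of Slc25a23 to Slc25a24 was -1.97, -1.94, -1.82 and -1.99 in control and -1.51, -1.61, -1.63 and -1.78 without serine and glycine, all higher. The difference was 0.30 (exact permutation p = 0.0286, adjusted p = 0.10). Neither pair passed after adjustment.

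The ratio of Slc25a33 to Slc25a36 differed by 0.22 (exact permutation p = 0.0571, adjusted p = 0.133), with control replicate 4 inside the range of the other group. Slc25a4 to Slc25a5 differed by 0.058 (exact permutation p = 0.20, adjusted p = 0.28) and Slc25a24 to Slc25a25 by -0.11 (exact permutation p = 0.20, adjusted p = 0.28). Slc25a28 to Slc25a37 differed by -0.053 (exact permutation p = 0.657, adjusted p = 0.767) and Slc25a39 to Slc25a40 by -0.018 (exact permutation p = 0.886, adjusted p = 0.886).

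**Figure D4:**
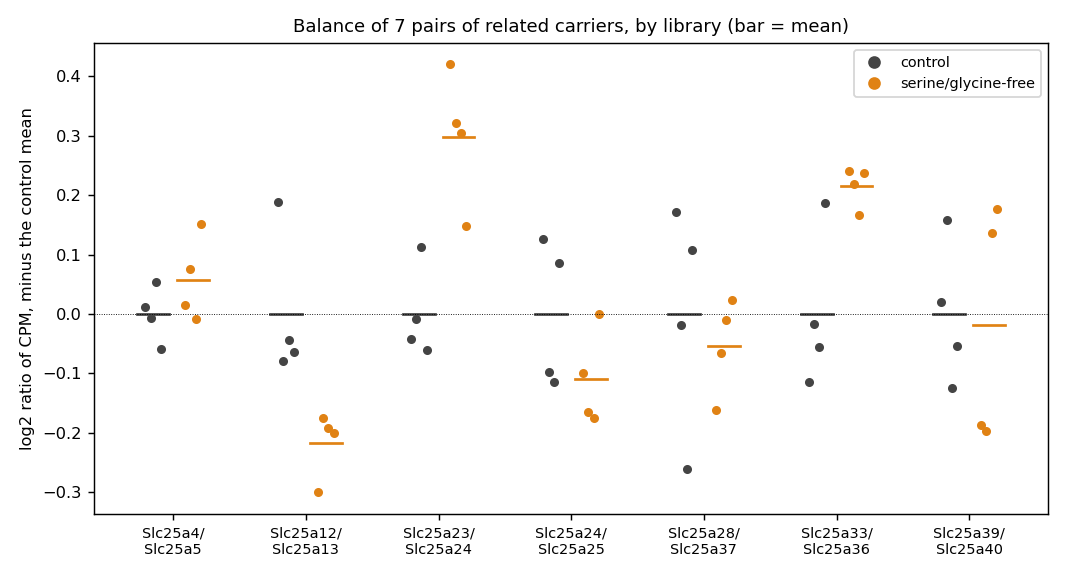
Log2 ratio of CPM for 7 pairs of related carriers in each library, minus the pair's control mean (y axis; points are libraries, bars are group means). The 4 serine/glycine-free libraries are apart from the 4 control libraries for Slc25a12/Slc25a13 and for Slc25a23/Slc25a24.

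Lists of genes that work beside the carriers were read from the same fit. In that fit 33.2% of all genes tested were called, 15.9% higher and 17.3% lower. Called were 20% of the sideroflexins, 33.3% of the tested family members with other names and 50% of the pyruvate carrier subunits. The share was 10% for the import machinery, 33.3% for iron use and 18.2% for mitochondrial structure. No list was tested as a set. Of 5 sideroflexins, 0 rose and 1 fell (edgeR, DESeq2 and limma-voom alike, and also at an unadjusted p under 0.05). Sfxn5 fell from 38.2, 38.8, 40.5 and 40.6 CPM to 24.6, 28.9, 26.95 and 27.6 CPM, with no overlap (log2 change -0.55, SE 0.050, adjusted p = 2.86e-12). This log2 change was larger than that of any called SLC25 member. The serine transporter Sfxn1 had 48.0, 53.3, 51.5 and 48.0 CPM in control and 49.5, 52.7, 50.3 and 51.0 CPM without serine and glycine (0.020, adjusted p = 0.766). Sfxn2 (-0.11), Sfxn3 (0.029) and Sfxn4 (0.19) had adjusted p of 0.25, 0.731 and 0.572.

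Of 5 family members with other names, 3 were tested. Mtch2, an insertase of the outer membrane, rose from 86.7 ± 2.48 CPM in control to 98.2 ± 3.91 CPM (SD, n = 4), a log2 change of 0.18 (adjusted p = 5.23e-05), whereas Mtch1 averaged 113 CPM in both groups (95% interval of the log2 change -0.065 to 0.065). Ucp2, the uncoupling protein of macrophages, was more abundant than any SLC25 member at 816 FPKM in control and 788 FPKM without serine and glycine (-0.055, adjusted p = 0.0716). Ucp2 passed with the length trend removed (-0.095, adjusted p = 5.85e-05) and with no filter on low counts (-0.063, adjusted p = 0.0286). It also passed when serine/glycine-free replicate 4 was left out (-0.075, adjusted p = 0.00395). Of the 2 subunits of the mitochondrial pyruvate carrier, Mpc2 passed (0.14, adjusted p = 0.0484) and Mpc1 did not (0.079, adjusted p = 0.138). The call of Mpc2 was lost without control replicate 1, 2 or 4 or serine/glycine-free replicate 2, 3 or 4 (adjusted p 0.0716 to 0.164), with DESeq2 (0.136) and with the length trend removed (0.446), among other alternatives.

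Of 10 genes of the machinery that inserts carriers into the inner membrane, 1 rose and 0 fell (edgeR, DESeq2 and limma-voom alike; 2 and 0 at an unadjusted p under 0.05). It was Timm10, a chaperone of the intermembrane space, from 9.45, 11.1, 9.37 and 9.73 CPM to 12.7, 11.2, 12.97 and 13.6 CPM (log2 change 0.35, SE 0.080, adjusted p = 0.000516). Of 9 genes of mitochondrial iron use, 3 rose and 0 fell (edgeR, DESeq2 and limma-voom alike, and 5 and 0 at an unadjusted p under 0.05). These 3 are 33.3% of the list, whereas 33.2% of all genes tested were called and 15.9% rose. Alas1, which joins glycine to succinyl-CoA in the first step of heme synthesis and so uses what Slc25a38 carries, rose from 123 ± 3.61 CPM in control to 141 ± 2.64 CPM (SD, n = 4), by 0.19 on the log2 scale (adjusted p = 1.48e-06). Fech, which inserts iron into heme, rose by 0.19 on the log2 scale (adjusted p = 0.000399), and the iron-sulfur scaffold Iscu by 0.20 (adjusted p = 4.31e-06). Of 11 genes of mitochondrial structure, 1 rose, 1 fell and 9 did not pass, with a median log2 change of 0.0038. The porin genes Vdac1 (-0.018), Vdac2 (0.036) and Vdac3 (0.013) and the DNA-binding Tfam (0.0038) did not pass, whereas citrate synthase Cs fell (-0.10, adjusted p = 0.00166) and Phb rose (0.16, adjusted p = 6.21e-05).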

How the data were processed

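Per the labels' protocols, total RNA was extracted with Trizol and libraries were made with oligo-dT beads. Per the submitters' processing notes, BWA, Bowtie2, RSEM and GRCm38.p6 were used, with no version or strand setting given in the sources used here. Per gene and library, the authors deposited RSEM expected counts, FPKM and TPM. The deposited TPM and group averages were not used. Expected counts were rounded (8.06% to 8.47% of values per library were not whole), filtered with edgeR's filterByExpr (minimum count 10, minimum total 15), scaled by TMM and tested with edgeR 4.0.16 (quasi-likelihood, group only) in R 4.3.3, with Benjamini-Hochberg adjustment over 11700 genes. The common coefficient of variation was 2.78%. Tested on simulated data of this design with 11700 genes and 200 changed, the fit recovered 65.7% of 1.2-fold, 89.6% of 1.5-fold and 100% of 2-fold changes, with 5.03% false among the calls. With a trend of counts with gene length simulated as well, the same fit made 714 false calls among 888, and 19 among 192 once the trend was removed. The size of the simulated trend was chosen and not estimated from these libraries, and the false calls depend on it. In the data 3882 genes were called, more than the 200 changed in the simulation, so the simulated rates may not hold here. Whether such a trend had a part in the calls reported was not tested beyond the alternative that removes it.

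Members and lists were chosen with earlier results of these data known. Values in every library are printed for called members with a log2 change of at least 0.2 in size and for a list of 14 members whatever their p. Slc25a22, Slc25a36 and Slc25a45 were added after their calls were seen, and Sfxn1, Sfxn5 and Timm10 likewise. Groups came from the titles. Alternatives were other scalings, filters, limma-voom (limma 3.58.1) and DESeq2 1.42.0 in place of edgeR, a replicate block, each library dropped in turn, a stricter threshold, removal of a trend with gene length, and limma on the deposited FPKM (0.1 added before log2). Confidence intervals are at 95%. Slc25a52 and Slc25a54 were not analysed here, and the values of 1 tested member are not reported here.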

Additional observations from a re-analysis of the deposited data

Results flagged for a closer look

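In 10 of 76 groups of 4 libraries (38 tested members in 2 conditions), 1 library stood apart from the other 3 by more than Dixon's 95% limit for the gap as a share of the range. Chance flags about 1 in 20 groups. Among called members this touched only Slc25a45, whose control replicate 2 stood at 94.9 CPM against 96.8 to 97.0 CPM in the other controls, still above all serine/glycine-free libraries. The oxoglutarate carrier Slc25a11 had 139 CPM in control replicate 3 against 149 to 151 CPM in the other controls. The peroxisomal carrier Slc25a17 had 35.4 CPM in serine/glycine-free replicate 3 against 31.0 CPM in each of the others of its group, and Slc25a46 had 82.3 CPM in control replicate 4 against 79.7 to 79.9 CPM. The ornithine carrier Slc25a15 was low in control replicate 4 (9.11 CPM) and in serine/glycine-free replicate 3 (9.13 CPM). In serine/glycine-free replicate 1, Slc25a29 (0.548 CPM) and Slc25a35 (3.18 CPM) were low. Slc25a42 was low in serine/glycine-free replicate 2 (3.11 CPM) and Slc25a53 in control replicate 3 (0.729 CPM). No single library held more than 2 of these values.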

How the results depend on the processing

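Of the 11 calls, 7 held in the same direction under all 18 alternatives (Slc25a10, Slc25a22, Slc25a23, Slc25a36, Slc25a38, Slc25a45 and Slc25a5), and 4 were lost under at least 1 (Slc25a13, Slc25a20, Slc25a26 and Slc25a3, each also lost at an adjusted p of 0.01). Leaving out 1 library gave 9 to 12 called members, 2 to 5 higher and 6 to 8 lower, with 2 higher without control replicate 1 and without control replicate 3. DESeq2 called 1 higher member. An adjusted p of 0.01 left 7 called members, 1 of them higher. The authors' FPKM with limma, chosen after seeing the data, gave 2 higher. With the replicate block, 11 members and 3655 genes were called. The numbers do not pair the libraries (correlations of same-numbered libraries -0.048, 0.061, 0.051 and -0.094), and no sign-flip test of a paired ratio can go below an exact p of 0.125. Over all genes, leaving out 1 library gave 3384 to 3760 calls. The sign of the log2 change turned in 21 instances over 11 genes, none called. Slc25a43 turned with no filter (-0.00071) and with the length trend removed (-0.043), as did Slc25a17 (-0.0072) and Slc25a39 (-0.0081) with the length trend removed and Slc25a27 on FPKM (-0.12). With 1 library left out, the log2 change ranged from -0.044 to 0.083 for Slc25a43, -0.017 to 0.11 for Slc25a33, -0.078 to 0.019 for Slc25a15, -0.048 to 0.020 for Slc25a16, -0.022 to 0.047 for Slc25a17, -0.0061 to 0.072 for Slc25a25, -0.12 to 0.034 for Slc25a35, -0.060 to 0.0028 for Slc25a37, -0.0032 to 0.049 for Slc25a39 and -0.27 to 0.053 for Slc25a47. The cause was not tested. Below 5 CPM, an SE of at least 0.13 limits what can be seen.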
